A study of Homo sapiens with 18 samples.

Results

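Human keratinocytes of 2 lines were compared 6 h after a scratch wound: 3 libraries of HaCaT, a line from skin, against 3 libraries of TIGK, a line from the gum. These 6 libraries are 6 of the 18 in the series, chosen by their labelled line and time, and every gene expressed in them was compared as HaCaT minus TIGK. The other 12 libraries are the same lines before the scratch (0 h, unscratched) and at 24 h after it, 3 libraries in each group. The study asked which differences in expression accompany the better healing known of oral keratinocytes. HaCaT is an immortal line that arose without an introduced gene from adult skin, and TIGK cells were immortalised with telomerase, the enzyme that maintains chromosome ends. Neither line carried a labelled genetic change or drug, and both 6 h groups had been scratched. The RNA was total RNA of the whole culture, so cells at the wound edge and cells far from it were read together. Each tissue is represented by 1 line, so a difference between skin and gum cannot be told apart from a difference between these 2 lines. The labels do not say that the 3 libraries of a group came from separate cultures. If they did not, the p-values describe only technical spread.

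Keratinocytes are the epithelial cells of skin and of the lining of the mouth. Basal keratinocytes rest on a basement membrane of laminin-332, held through hemidesmosomes, and express KRT5 and KRT14. Cells that leave the basal layer in skin change to KRT1 and KRT10 and build a cornified envelope, whereas the lining of the mouth uses KRT4 and KRT13. At a wound edge, keratinocytes loosen from the basement membrane, secrete matrix and proteases, crawl over the gap, and later divide behind the edge.

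The 6 libraries held 15690679 to 18039684 reads counted on genes. Library C of TIGK at 6 h stood apart: it listed 25161 genes with at least 1 read, where the other 5 listed 21164 to 22147, and 4.98% of its reads were mitochondrially encoded, where the others had 6.10% to 7.82%. Of 10 keratinocyte markers, all were read in every library and their summed level was 41700 to 45000 CPM in HaCaT and 38500 to 39100 CPM in TIGK. CPM are read counts scaled to the library's size. Of 10 fibroblast markers, 6 could be tested and all 6 were lower in HaCaT; their sum was 21.0 to 24.1 CPM in HaCaT and 243 to 293 CPM in TIGK. The fibroblast markers COL1A2 and DPT had no read in any of the 6 libraries, and PDGFRA had 11 reads in TIGK in all. Decorin (DCN) stood at 0.329 ± 0.0915 against 96.4 ± 18.8 CPM (HaCaT against TIGK, mean ± SD, n = 3, as in every such pair). Of 7 melanocyte markers, TYR had no read and TYRP1 and DCT 1 read each; MITF had 96 reads in HaCaT and 583 in TIGK, PMEL 88 and 148 and MLANA 19 and 10. Of 6 endothelial markers, CDH5 had no read, PECAM1 had 0 and 22 reads, VWF 147 and 35 and KDR 0 and 51. Of 6 Merkel cell markers, PIEZO2 had no read, SYP had 128 and 12 and ISL1 320 and 241. CHGA had 16 and 35, ATOH1 0 and 5 and KRT20 3 and 3. Of 8 immune markers CD14 alone passed the filter on low counts, at 0.657 ± 0.206 against 4.43 ± 0.955 CPM. Below the filter, PTPRC had 4 and 0 reads in HaCaT and TIGK, CD3E 9 and 0 and CD68 14 and 3. CD79A had 4 and 6 and CD207 0 and 8, and CD1A and LYZ had no read. The part of other cells in the differences was not tested. In such bulk RNA, fewer cells of a type and less RNA per cell cannot be told apart.

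The lines differed in most genes. With edgeR's quasi-likelihood test and a Benjamini-Hochberg adjusted p under 0.05 over all genes tested, the rule for calling a gene throughout, 10900 of 17409 genes tested were called, 62.6%. Of these, 5188 were higher in HaCaT (29.8% of genes tested) and 5712 lower (32.8%). These shares are the background for every count of list members given below. The 3 libraries of one line lay wholly above or below the 3 of the other in 11711 genes, 67.3%. This held for 10509 of the 10900 called genes, so where it is given below for a called gene it adds little to the call. Many of the called differences were small: 5526 were under 2-fold. A test for a difference of more than 2-fold called 3611 genes (20.7%), 1328 higher in HaCaT (7.63%) and 2283 lower (13.1%). The large differences leaned toward TIGK. Among called genes, 74 were at least 100-fold higher in HaCaT by fitted value and 385 at least 100-fold lower. No read in TIGK was found for 81 called genes and no read in HaCaT for 392. The fitted fold of such genes depends on the prior count, so the 100-fold counts do too. ZEB2, with no read in HaCaT and a mean of 0.984 CPM in TIGK, had a fitted log2 of -7.03 and is counted among the 385. The median difference over all genes tested was -0.02 on the log2 scale. Without TIGK library C at 6 h, 10427 genes were called. The authors' deposited table for the same pair of groups lists 2362 genes, 738 higher and 1624 lower in HaCaT, all with an absolute log2 of at least 1.5. Of these, 2358 were called here with the same sign. In the other direction, 3742 genes called here had an absolute log2 of at least 1.5, and 2352 of them are in the authors' list.

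**Figure D1:**
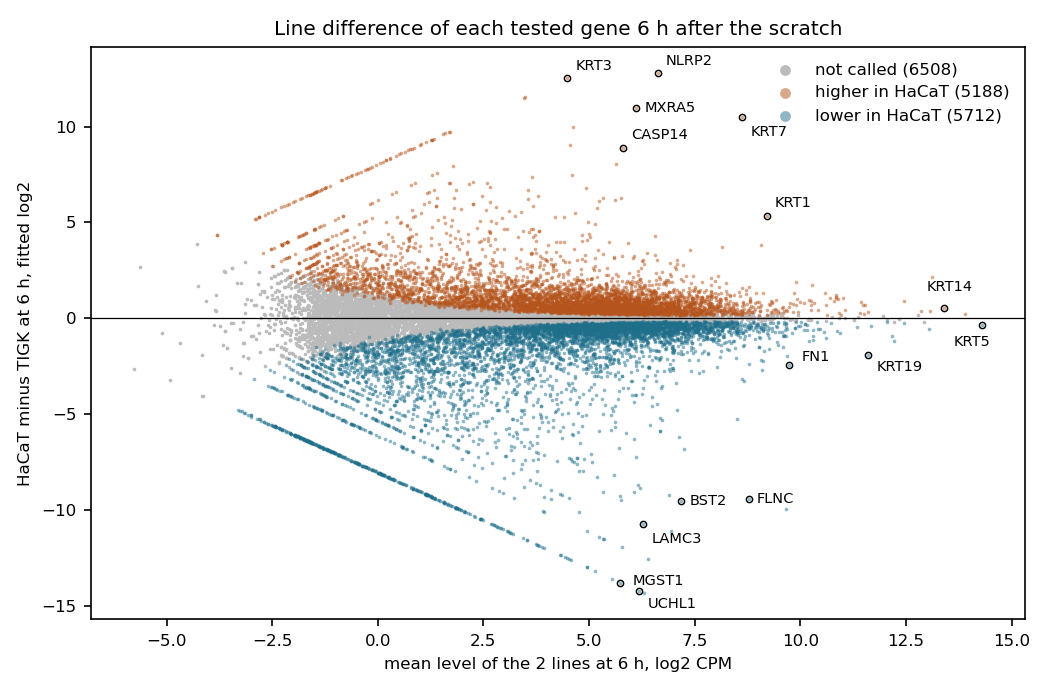
Each point is a gene; the horizontal axis is the mean level of both lines at 6 h (log2 CPM) and the vertical axis the fitted log2 difference, HaCaT minus TIGK, with called genes coloured and 15 named genes ringed; 1 gene without a read at 6 h is not drawn. The straight lower rims are genes without a read in one line, whose fitted value depends on the prior count; the rim toward TIGK is longer and denser, with 392 called genes against 81.

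**Figure D2:**
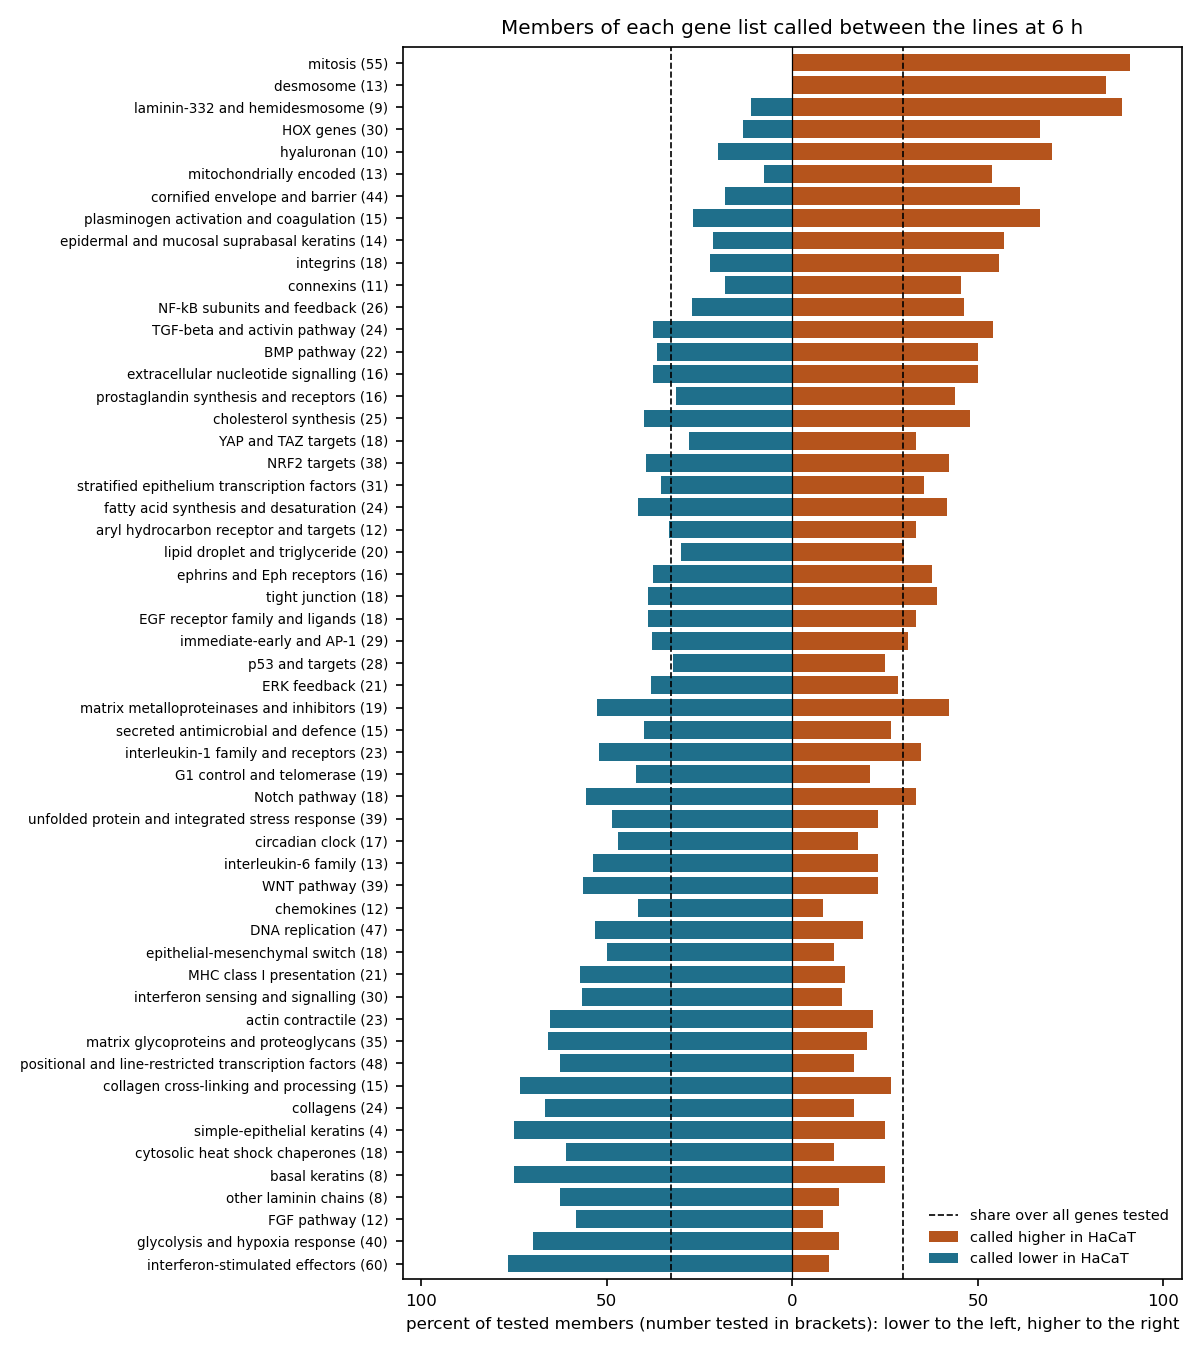
Each bar is the percent of a list's tested members called higher (right) or lower (left) in HaCaT, with the number tested in brackets; dashed lines mark the same percent over all genes tested, 29.8% higher and 32.8% lower. Mitosis, desmosome and laminin-332 genes stand at the top and interferon-stimulated effectors and glycolysis genes at the bottom.

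The largest differences were genes at a high level in one line and at or near no reads in the other. KRT7, a keratin of simple and glandular epithelia (chr 12, 52232520 to 52252186, hg38), was measured at 845, 744 and 785 CPM in HaCaT libraries A, B and C and 0.399, 0.313 and 0.874 CPM in TIGK libraries A, B and C. It was 1428-fold higher in HaCaT (adjusted p = 3.0e-22). KRT3, a keratin known from the cornea (chr 12, 52789685 to 52796117), stood at 45.7, 30.6 and 57.8 CPM in HaCaT and at 0 reads in all TIGK libraries, and was at least 243-fold higher. Every HaCaT library was above every TIGK library for both keratins, which the rule for naming the largest differences required. NLRP2, which encodes a sensor protein of the inflammasome family (chr 19, 54953130 to 55001142), stood at 9584 reads in HaCaT and 1 read in TIGK, a ratio of 9736 with a 95% counting interval of 1747 to 384604. CASP14, a protease of the cornified layer (chr 19, 15049384 to 15058293), stood at 113, 116 and 103 CPM in HaCaT and 0.399, 0.313 and 0 CPM in TIGK. It was 479-fold higher in HaCaT. MXRA5, a secreted matrix protein, had 6754 reads in HaCaT and 3 in TIGK, a ratio of 2287 with a 95% counting interval of 782 to 11093. GALNT5, which starts O-linked sugar chains, and OLFM1, a secreted olfactomedin, had no read in TIGK and were at least 121-fold and at least 119.6-fold higher. The transcription factor ONECUT3 had 2383 reads against 2, and TFCP2 stood at 46.8 ± 1.34 against 0.0782 ± 0.0682 CPM. HS3ST2, a heparan sulfate sulfotransferase, PCSK5, a proprotein convertase, and PLIN2, a coat protein of lipid droplets, were 264-fold, 177-fold and 102-fold higher.

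Toward TIGK, UCHL1, a ubiquitin hydrolase best known from neurons (chr 4, 41256413 to 41268455), stood at 136, 142 and 161 CPM in TIGK and at 0 reads in all HaCaT libraries. It was at least 789-fold lower in HaCaT. MGST1, a membrane glutathione transferase (chr 12, 16347142 to 16609259), stood at 113, 115 and 91.8 CPM in TIGK and at 0 reads in all HaCaT libraries, at least 576-fold lower. G0S2, an inhibitor of triglyceride lipase, stood at 62.2, 68.5 and 79.2 CPM in TIGK and at 0 reads in all HaCaT libraries, at least 377-fold lower. The libraries of the lines did not overlap for these 3 genes, which the rule for naming them required. NKX2-5 and DMRTA2, transcription factors of the heart and the cortex in development, had no read in HaCaT and stood in TIGK at 46.2 ± 5.13 and 43 ± 12 CPM. The matrix protein fibulin-2 (FBLN2) had 1 read in HaCaT and 8258 in TIGK, a ratio of 8129 with a 95% counting interval of 1459 to 321109. RNF212, ZNF469, CPM (the carboxypeptidase M gene), CHST10 and IKZF3, an Ikaros-family transcription factor, had no read in HaCaT either and were at least 256-fold, at least 216-fold, at least 213-fold, at least 166-fold and at least 159.9-fold lower. By difference of mean level rather than fold, the genes furthest apart were abundant ones. KRT14, SCD, COL17A1 and the mitochondrial MT-CO1, MT-CO2 and MT-CO3 were furthest toward HaCaT. The calls of the 3 mitochondrial genes are lost by limma on log2 FPKM, and those of MT-CO1 and MT-CO3 also without TIGK library C at 6 h (edgeR adjusted p = 0.347 and 0.053). That of MT-CO1 is lost under 15 of 26 alternatives. KRT5, SLC7A5, KRT19, KRT6A, PLEC and FN1 were furthest toward TIGK.

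The keratins divided between the lines by type. Basal keratins were abundant in both, and of 8 basal or wound-edge keratins 2 were higher and 6 lower in HaCaT. KRT14 was measured at 13369, 11756 and 12981 CPM in HaCaT and 8800.5, 8987 and 8448 CPM in TIGK, 1.45-fold higher (adjusted p = 3.9e-06). Its partner KRT5 stood at 18299, 17135 and 17662 CPM in HaCaT and 22754, 22534 and 23514 CPM in TIGK, 1.3-fold lower (adjusted p = 4.0e-06). KRT15, a basal keratin of resting epithelium, stood at 522 ± 24.6 against 237 ± 15.3 CPM and was 2.2-fold higher. The lines exchanged places within this group, with no overlap of libraries for KRT14, KRT5 or KRT15. The wound-edge keratins were lower in HaCaT: KRT6A stood at 6808 ± 334 against 10184 ± 818 CPM, KRT6B at 69.5 ± 25.8 against 313 ± 62.4 CPM and KRT16 at 417 ± 87.2 against 970.5 ± 147 CPM. KRT6A, KRT6B and KRT6C are near-identical genes, and reads may be split among them. Per kilobase of gene length, KRT5 and KRT14 stood at 4036 ± 134 against 5293 ± 108 FPKM and 5449.5 ± 352 against 3798 ± 126 FPKM.

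Of 14 suprabasal keratins of skin and mucosa, 8 were higher in HaCaT and 3 lower. KRT1, the first suprabasal keratin of epidermis, was measured at 1305, 872 and 1274 CPM in HaCaT and 24.4, 38.5 and 22.1 CPM in TIGK. It was 40.7-fold higher (adjusted p = 3.9e-15), and HaCaT library B was the lowest of its group. KRT4, a keratin of the moist mucosa, stood at 78.1, 76.6 and 83.8 CPM in HaCaT and 1.26, 1.07 and 0.764 CPM in TIGK and was 77.7-fold higher in the skin line. KRT13, the usual partner of KRT4, went the other way, at 147, 143 and 147 CPM in HaCaT and 948, 973 and 921 CPM in TIGK, and was 6.5-fold lower. The 2 keratins that pair in the lining of the mouth lay on opposite sides, and their libraries did not overlap. KRT80 was 6.68-fold higher, and KRT75, a hair follicle keratin, was 54.6-fold lower. Of 4 simple-epithelial keratins only KRT7 was higher. KRT19 was 3.75-fold lower, at 1310.3 ± 49.3 against 4908 ± 555 CPM, and KRT8 and KRT18 were 1.88-fold and 1.44-fold lower.

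Genes of the cornified envelope and skin barrier were mostly higher in HaCaT, 27 of 44 tested, with 8 lower and a median log2 difference of 1.72. Filaggrin (FLG), which bundles keratin in the cornified layer, was measured at 38.9, 41.6 and 43.5 CPM in HaCaT and 1.33, 1.07 and 0.819 CPM in TIGK, 38.8-fold higher. SERPINB13, a cysteine protease inhibitor of squamous epithelium, was 10.5-fold higher, at 152 ± 9.002 against 14.5 ± 1.72 CPM. Levels of both genes did not overlap between lines. Members lower in HaCaT included the transglutaminase TGM2, 6.29-fold lower, the protease inhibitor A2ML1, 4.72-fold lower, and the fatty acid elongase ELOVL4, 4.78-fold lower. Another 9 listed barrier genes, among them loricrin and corneodesmosin, did not pass the filter on low counts in this comparison. Of 31 transcription factors of stratified epithelium, 11 were higher and 11 lower. GATA3 and TFAP2C were 3.57-fold and 2.29-fold higher. TP63, the master factor of the basal layer, stood at 242 ± 19.9 against 398 ± 48.3 CPM, SOX2 was 4.05-fold lower and BCL11B was 2.28-fold lower.

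**Figure D3:**
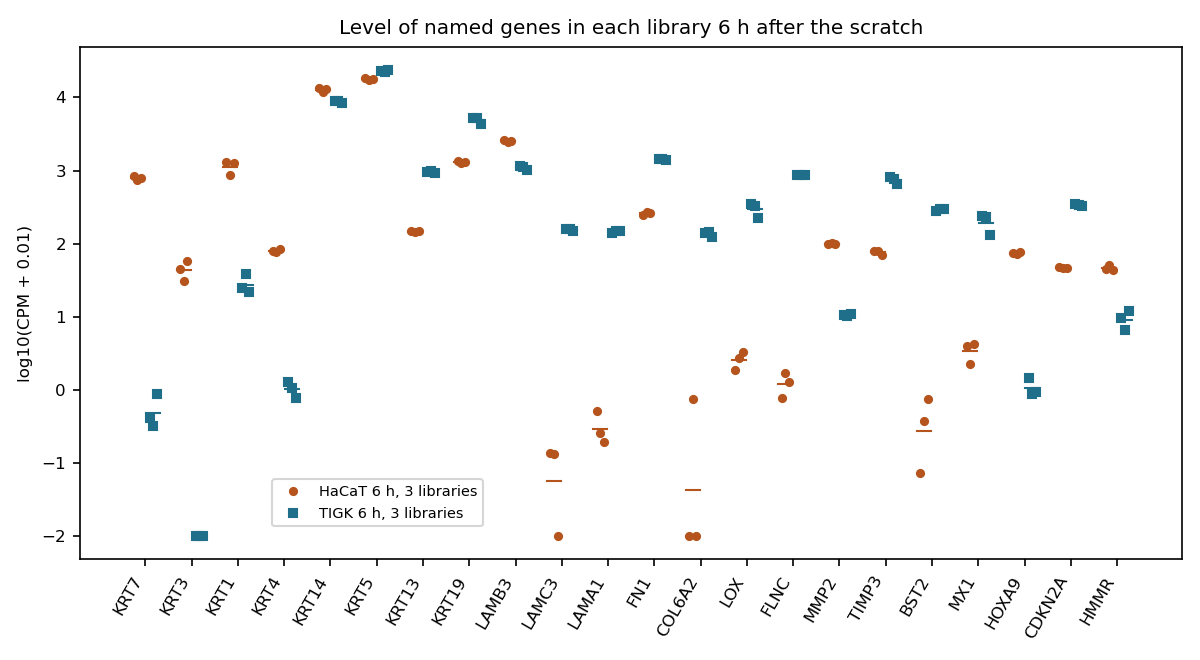
Each symbol is a library at 6 h (circles HaCaT, squares TIGK; bars are the means of the logged values), and the vertical axis is log10(CPM + 0.01), so a gene without a read sits at -2. In each of the 22 genes drawn, the 3 HaCaT libraries and the 3 TIGK libraries do not overlap. The same held for 67.3% of all genes tested and for 10509 of the 10900 genes called. All 22 are called genes, so this was largely fixed by their choice.

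Genes of laminin-332, the hemidesmosome, the integrins and the desmosome were mostly read at higher levels in HaCaT. The cell-cell cadherins CDH1 and CDH3, counted in another list, were called lower. Of 9 genes of laminin-332 and the hemidesmosome, which anchor the basal cell, 8 were higher and 1 lower. LAMB3, the beta chain of laminin-332 (chr 1, 209614870 to 209652466), was measured at 2584, 2492 and 2553 CPM in HaCaT and 1167, 1132 and 1016 CPM in TIGK, 2.3-fold higher (adjusted p = 3.5e-13). Collagen XVII (COL17A1) and integrin beta-4 (ITGB4), both of the hemidesmosome, stood at 3546 ± 66.4 against 1981 ± 123 CPM and 2264 ± 27.7 against 1069.9 ± 96.7 CPM. The libraries of the lines did not overlap for any of these 3 genes. Plectin (PLEC), which ties the hemidesmosome to keratin, was the exception, at 3190.2 ± 54.3 against 6001 ± 208 CPM, 1.88-fold lower. Of 18 integrins, the receptors for matrix, 10 were higher and 4 lower. ITGB5 was 7.27-fold higher, ITGA2, a subunit of the collagen receptor, 4.6-fold higher and ITGB1 1.97-fold higher. ITGA5, the alpha subunit of the fibronectin receptor, stood at 58.5 ± 5.5 against 201 ± 15.6 CPM, 3.44-fold lower.

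The laminin chains outside laminin-332 showed the other direction, with 5 of 8 lower and 1 higher. LAMC3 (chr 9, 131009082 to 131094473) was measured at 0.127, 0.122 and 0 CPM in HaCaT and 158, 159 and 147 CPM in TIGK. It was 1719-fold lower. LAMA1, the alpha chain of embryonic basement membrane, stood at 0.312 ± 0.173 against 146 ± 4.36 CPM and LAMB1 at 90.6 ± 7.75 against 319.9 ± 6.86 CPM. Only LAMB2 was called higher, at 122 ± 6.83 against 57.5 ± 3.96 CPM. Among junction proteins, 11 of 13 desmosome genes were higher in HaCaT and 0 lower, with a median log2 difference of 1.02. The desmosomal cadherin DSG1, typical of upper epidermal layers, was 15.8-fold higher, DSG2 was 2.03-fold higher, and DSG4 had no read in TIGK. Desmoplakin and PERP, in the same list, were not called. Tight junction genes were evenly divided, 7 higher and 7 lower of 18. CLDN1 and OCLN were 1.55-fold and 4.38-fold higher, and CLDN11 and TJP1 were 82.7-fold and 1.38-fold lower. Leaving out TIGK library B at 6 h reduced the lower tight junction genes from 7 to 4. The connexin GJB6 was 7.96-fold lower.

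Genes of the interstitial matrix were mainly lower in HaCaT. Of 24 collagen genes 16 were lower and 4 higher, of 35 matrix glycoproteins and proteoglycans 23 were lower and 7 higher, and of 15 genes of collagen processing and cross-linking 11 were lower and 4 higher. Fibronectin (FN1), the provisional matrix of wounds (chr 2, 215360440 to 215436172), was measured at 248, 271 and 263 CPM in HaCaT and 1455, 1461 and 1381 CPM in TIGK, 5.49-fold lower (adjusted p = 1.4e-17). COL6A2 stood at 0, 0.733 and 0 CPM in HaCaT and 138, 143 and 122 CPM in TIGK, 527-fold lower. COL1A1 stood at 21.5 ± 0.995 against 168 ± 6.73 CPM and COL6A1 at 31.7 ± 1.86 against 123 ± 8.43 CPM. The HaCaT libraries lay below the TIGK libraries for all 4 genes. SPARC, a collagen-binding protein of remodelling matrix, was 8.83-fold lower, thrombospondin-2 (THBS2) 74.4-fold lower and DCN 286-fold lower. Lysyl oxidase (LOX), which cross-links collagen, stood at 1.84, 2.75 and 3.29 CPM in HaCaT and 352, 326 and 224 CPM in TIGK, 114-fold lower. The lysyl hydroxylase PLOD2 was 11.5-fold lower. These counts moved with the fibroblast markers, but COL1A1, COL3A1, DCN and LUM are members of both, so part of this was fixed by the choice of genes. COL1A2 had no read in either line. A smaller set of matrix genes was higher in HaCaT: tenascin-C (TNC) was 4.84-fold higher, ECM1 6.77-fold higher, COL5A3 7.81-fold higher and COL12A1 1.41-fold higher.

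Contractile and cytoskeletal genes followed the matrix, with 15 of 23 lower and 5 higher. Filamin C (FLNC), an actin cross-linker of muscle (chr 7, 128830377 to 128859274), was measured at 0.762, 1.71 and 1.28 CPM in HaCaT and 876, 875 and 874 CPM in TIGK. It was 692-fold lower (adjusted p = 3.4e-21). Tropomyosin TPM2 stood at 7.11 ± 0.468 against 172 ± 21.5 CPM and non-muscle myosin MYH10 at 44.2 ± 2.22 against 297 ± 15.9 CPM. TPM3 and TAGLN2 were 1.61-fold and 1.78-fold higher. Of 18 genes of the epithelial to mesenchymal switch 9 were lower and 2 higher, and the list holds genes of both states. Called lower were the epithelial CDH1 (E-cadherin, log2 -0.48), CDH3, GRHL1, GRHL3 and ESRP2 and the mesenchymal SNAI1, TWIST1, TWIST2 and ZEB2. The mesenchymal genes CDH2 and VIM were not called. TWIST1 and TWIST2 were 6.97-fold and 4.46-fold lower, P-cadherin (CDH3) was 1.44-fold lower, and CDH13 and OVOL1 were 8.28-fold and 1.75-fold higher. YAP and TAZ pathway genes did not lean to a side, with 6 of 18 higher and 5 lower. TAZ itself (WWTR1) was 3.66-fold higher and the matricellular target CYR61 2.57-fold lower.

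Enzymes that break down matrix and their inhibitors were found on both sides. Of 19 matrix metalloproteinases and inhibitors, 8 were higher and 10 lower in HaCaT. The gelatinase MMP2 was measured at 98.4, 100.5 and 99.5 CPM in HaCaT and 10.7, 10.1 and 11 CPM in TIGK, 9.36-fold higher. The collagenase MMP1 stood at 118 ± 2.09 against 28.8 ± 0.851 CPM, 4.09-fold higher, and MMP28, an epidermal protease, was 3.78-fold higher. The inhibitor TIMP3 stood at 79.7, 79.8 and 70.4 CPM in HaCaT and 809.7, 767 and 647 CPM in TIGK, 9.67-fold lower, and TIMP2 at 38.5 ± 2.26 against 202 ± 10.7 CPM, 5.25-fold lower. For these 5 genes the libraries of the lines did not overlap. Of 14 proteases in the list 7 were higher and 6 lower, the latter including MMP9, at 5.04 ± 0.534 against 9.02 ± 2.27 CPM, MMP14, at 285 ± 6.51 against 323 ± 16.1 CPM, and MMP25, 7.63-fold lower. Of 5 inhibitors 4 were lower, and TIMP1 was 1.5-fold higher. MMP9, MMP14 and TIMP1 were named after their values were seen. In the plasminogen and coagulation list 10 of 15 were higher and 4 lower. SERPINB2, an inhibitor of plasminogen activators, stood at 54.1 ± 3.2 against 2.64 ± 0.346 CPM, 20.5-fold higher. The thrombin receptor F2R and the trypsin receptor F2RL1 were 8.86-fold and 8.95-fold higher, and thrombomodulin (THBD) was 2.6-fold lower. In the hyaluronan list, 7 of 10 were higher: the synthase HAS3 stood at 200.1 ± 8.25 against 44 ± 3.04 CPM and CEMIP, which starts hyaluronan breakdown, at 37.3 ± 5.001 against 2.36 ± 0.868 CPM. CEMIP2 and UGDH, which makes a sugar precursor, were 2.38-fold and 3.59-fold lower.

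Growth factor pathways differed member by member. Of 24 TGF-beta and activin genes 13 were higher in HaCaT and 9 lower. PMEPA1, a feedback inhibitor that the pathway itself induces, was measured at 462, 441 and 409 CPM in HaCaT and 108, 102 and 75.2 CPM in TIGK, 4.61-fold higher. Follistatin (FST), which binds activin, was 8.13-fold higher and SMAD4, the shared transducer, 2.82-fold higher. The activin subunit INHBB, the co-receptor TGFBR3 and the latent binding protein LTBP2 were 31-fold, 2.66-fold and 3.15-fold lower. Of 22 BMP genes 11 were higher and 8 lower: BMP2, SMAD6 and ID2 were 5.97-fold, 9.73-fold and 10.4-fold higher, and BMP7 and BMP8B were 2.26-fold and 15-fold lower. The FGF list leaned to TIGK, 7 of 12 lower and 1 higher. FGFR1 stood at 0.532 ± 0.383 against 31.9 ± 4.28 CPM, 58.7-fold lower, while FGFR2, whose epithelial form receives keratinocyte growth factor, was 1.35-fold higher. The ligands FGF2 and FGF5 were 8.18-fold and 7.62-fold lower. Of 39 WNT genes 22 were lower and 9 higher. WNT6, TCF7 and TCF7L1 were 21.9-fold, 21.8-fold and 6.97-fold lower, and WNT7A, WNT9A and LGR6 were 2.64-fold, 2.27-fold and 2.9-fold higher.

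EGF receptor, which drives keratinocyte migration, stood at 1317 ± 155 against 723 ± 39 CPM and was 1.82-fold higher. Its ligands TGFA and HBEGF were 2.42-fold and 3.29-fold higher, and AREG and EPGN were 2.002-fold and 4.67-fold lower. The feedback inhibitor ERRFI1 was 3.27-fold lower. Ligands of 1 receptor lay on both sides. In the Notch list 10 of 18 were lower and 6 higher, with NOTCH3 and DLL3 3.46-fold and 29.5-fold lower and JAG1 1.5-fold higher. Of 16 ephrins and Eph receptors 6 were higher and 6 lower. EPHB6 was 6.84-fold higher and EPHB2 6.77-fold lower. Of 29 immediate-early and AP-1 genes 9 were higher and 11 lower, 69.0% called against 62.6% of all genes tested. FOSL1, an AP-1 subunit of migrating keratinocytes, was measured at 318, 266 and 289.7 CPM in HaCaT and 59.96, 61.1 and 68.6 CPM in TIGK, 4.6-fold higher. JUNB and FOSL2 were 1.67-fold and 1.73-fold lower, and the partners MAFK and MAFG 3.86-fold and 2.01-fold higher. The letters of the AP-1 motif, TGACTCA, which reads TGAGTCA on the other strand, were in 4.51% of 843 promoters of genes more than 2-fold higher in HaCaT and 3.26% of 1472 of genes more than 2-fold lower. In the 250 bases before the start, 2.90% of 11499 promoters of genes tested held it, and 4.16% of all 27305 promoters.

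Inflammatory lists were mixed. NF-kB subunits and feedback genes were higher in 12 of 26 and lower in 7. RELB and NFKB2, of the non-classical arm, and BCL3 were 3.87-fold, 2.01-fold and 4.38-fold higher, and TNFAIP2 and TNIP2 were 4.51-fold and 1.3-fold lower. Of 23 interleukin-1 genes 8 were higher and 12 lower. The receptor IL1R1 and the signalling inhibitor IRAK3 were 6.27-fold and at least 149-fold lower, and the inflammasome genes NLRP1 and PYCARD were 2.08-fold and 3.27-fold higher. Of 23 chemokines 12 passed the filter, most of them at low levels. CXCL14 and CXCL16 had means of 58.9 against 73.4 CPM and 51.0 against 45.4 CPM and were not called. In this list 5 were lower and CXCL6 was the only 1 higher, with no read in TIGK and 1.11 ± 0.304 CPM in HaCaT. In the interleukin-6 family 7 of 13 were lower, among them the receptors IL6R, 2.56-fold lower, and LIFR, 11.7-fold lower. IL11 was 1.95-fold higher.

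Antiviral genes were lower in HaCaT in most cases. These are genes that interferon switches on through transcription factors that bind the interferon-stimulated response element; many are also kept on at a low level without interferon. Of 60 interferon-stimulated effectors 46 were lower, 6 higher and 8 not called, with a median log2 difference of -1.17. BST2, which tethers budding virus to the cell (chr 19, 17402939 to 17405648), was measured at 0.0635, 0.367 and 0.731 CPM in HaCaT and 277, 293 and 299.6 CPM in TIGK, 727-fold lower (adjusted p = 3.3e-20). MX1, a GTPase that blocks influenza virus (chr 21, 41420304 to 41459214), stood at 3.94, 2.26 and 4.2 CPM in HaCaT and 241, 233 and 129.6 CPM in TIGK, 58-fold lower. TIGK library C was the lowest of its group for MX1, and all TIGK libraries were above all HaCaT libraries for both genes. GBP1 was 20.5-fold lower and ISG15, a ubiquitin-like modifier, 5.32-fold lower. RSAD2 and CMPK2, neighbours in the genome, stood at 0.907 ± 0.216 against 2.12 ± 0.479 CPM and 1.21 ± 0.292 against 2.92 ± 1.51 CPM; both calls are lost under at least 1 alternative. The exceptions higher in HaCaT included IFITM2 and IFI16, 29.8-fold and 2.38-fold higher, and TRIM14, 1.46-fold higher; IFITM genes are near-identical, and their reads may be mixed. Of 30 genes of interferon sensing and signalling 17 were lower and 4 higher. The DNA sensor CGAS was 3.67-fold lower and TLR2 21.9-fold lower, while the receptor chains IFNGR1 and IFNGR2 were 2.02-fold and 1.42-fold higher. In antigen presentation, 12 of 21 genes were lower and 3 higher. HLA-B, a gene whose reads depend on the allele, stood at 43 ± 0.855 against 186 ± 27.2 CPM, and the shared light chain B2M was 1.26-fold higher.

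The promoters of these effectors share letters that can be read directly. Promoter sequences from RefSeq (GRCh38.p14) were matched by symbol for 47 of the 60 effectors. The core of the interferon-stimulated response element was searched as GAAA, any 2 bases and GAAA again, on both strands, so that TTTC, any 2 bases and TTTC is a match too, with matches allowed to overlap. In the 250 bases before the start, 26 of 47 promoters (55.3%) held a match, against 2.34% of 11499 promoters of genes tested and 3.07% of all 27305 promoters. Of the 35 promoters of effectors called lower 51.4% held a match, and 3 of the 4 of those called higher. Over all genes more than 2-fold lower 2.99% held one and over those more than 2-fold higher 1.78%. The 4 promoters with a match and the largest differences are printed, to show where the letters lie, as 250 bases 5′ to 3′ in the direction of the gene, ending at the base before the start, with matches in capitals. IFI44L had no read in HaCaT and 16.9 ± 5.96 CPM in TIGK (GRCh38.p14, chr1:78620198-78620447, plus strand), BST2 is described above (GRCh38.p14, chr19:17405631-17405880, minus strand), HERC5 stood at 0.248 ± 0.164 against 16.9 ± 2.57 CPM (GRCh38.p14, chr4:88456869-88457118, plus strand) and IFI27 at 1.9 ± 1.23 against 96.7 ± 28.5 CPM (GRCh38.p14, chr14:94110486-94110735, plus strand).
IFI44L: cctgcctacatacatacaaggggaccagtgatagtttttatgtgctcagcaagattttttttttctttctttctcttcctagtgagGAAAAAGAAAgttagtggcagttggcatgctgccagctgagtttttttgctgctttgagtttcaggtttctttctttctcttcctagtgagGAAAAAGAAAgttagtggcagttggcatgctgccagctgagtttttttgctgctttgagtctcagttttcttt
BST2: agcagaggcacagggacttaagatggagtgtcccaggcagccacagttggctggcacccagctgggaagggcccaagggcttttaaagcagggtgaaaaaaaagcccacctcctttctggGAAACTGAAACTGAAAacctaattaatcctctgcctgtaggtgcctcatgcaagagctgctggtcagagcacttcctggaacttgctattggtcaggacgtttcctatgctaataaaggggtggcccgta
HERC5: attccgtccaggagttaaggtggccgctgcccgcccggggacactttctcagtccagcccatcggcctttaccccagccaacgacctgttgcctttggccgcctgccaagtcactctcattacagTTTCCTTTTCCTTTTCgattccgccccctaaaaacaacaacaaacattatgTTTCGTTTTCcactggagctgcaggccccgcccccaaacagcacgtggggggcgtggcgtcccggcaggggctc
IFI27: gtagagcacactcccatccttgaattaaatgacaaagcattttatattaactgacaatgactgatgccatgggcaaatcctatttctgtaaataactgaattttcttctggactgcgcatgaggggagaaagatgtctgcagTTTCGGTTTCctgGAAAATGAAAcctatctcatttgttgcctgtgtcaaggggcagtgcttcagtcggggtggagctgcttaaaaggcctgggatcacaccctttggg
IFI44L holds 2 matches within a repeated stretch, and its first begins 164 bases before the start. BST2 holds 2 overlapping matches beginning 130 and 124 bases before the start, HERC5 3 matches on the opposite strand, and IFI27 1 on each strand. A match of letters is a description and does not show binding.

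Developmental transcription factors that mark position in the body separated the lines. HOX genes, which record position along the trunk and limbs, were higher in HaCaT for 20 of 30 tested and lower for 4, with a median log2 difference of 1.37. By cluster, 9 of 11 HOXA genes and 7 of 9 HOXC genes were higher and 0 lower, 1 of 6 HOXB genes was higher and 3 lower, and 3 of 4 HOXD genes were higher and 1 lower. HOXA9 (chr 7, 27162435 to 27175180) was measured at 74.2, 72.2 and 76.3 CPM in HaCaT and 1.46, 0.877 and 0.928 CPM in TIGK, 68.5-fold higher (adjusted p = 3.8e-19). HOXC12 and HOXD10 were 82.8-fold and 7.61-fold higher. The genes lower in HaCaT were HOXB3, HOXB5, HOXB6 and HOXD8, all at low levels. HOXD8 stood at 0.388 ± 0.243 against 4.14 ± 1.4 CPM, HOXB6 at 0.307 ± 0.158 against 2.31 ± 0.486 CPM, and HOXB5 had no read in HaCaT. Antisense genes lie within these clusters, and whether the counting used strand is not given in the sources used here.

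**Figure D4:**
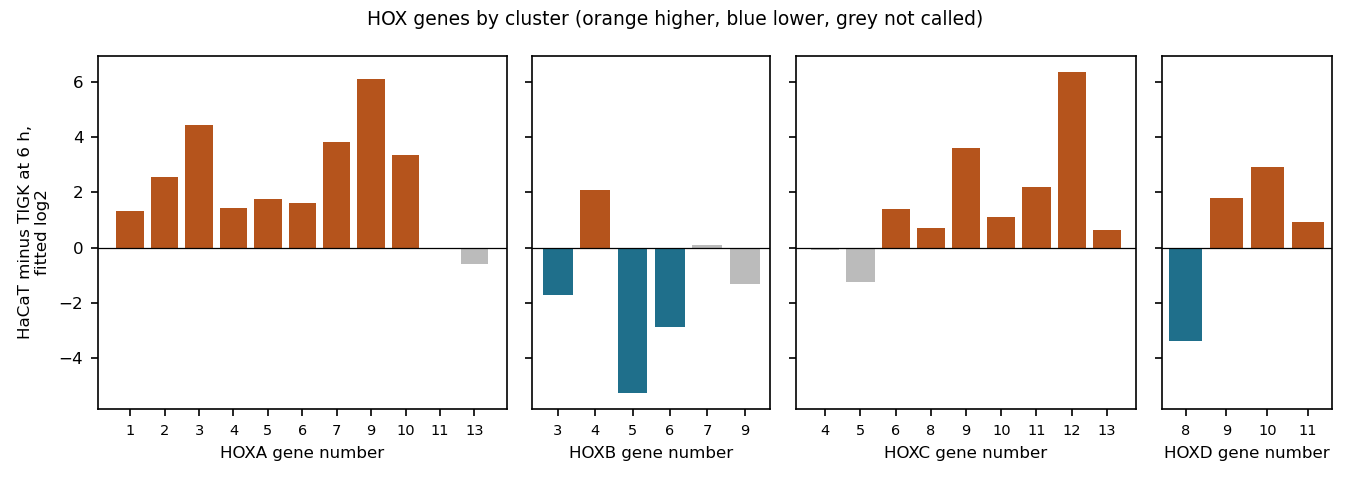
Bars give the fitted log2 difference at 6 h, HaCaT minus TIGK, of each tested HOX gene in its cluster, ordered by gene number. No HOXA or HOXC gene is called lower, though HOXC5 and HOXA13, at low levels and not called, stand at -1.25 and -0.60, and the blue bars, called lower, are 3 HOXB genes and HOXD8.

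Of 48 tested members of another list, of positional and line-restricted transcription factors, 30 were lower in HaCaT and 8 higher. Restriction to a line was thus a ground for listing, with earlier results of these data known. Part of this count was therefore fixed by the choice of genes. BARX1, a factor of facial and stomach mesenchyme, had 1 read in HaCaT and 5332 in TIGK, a ratio of 5249 with a 95% counting interval of 942 to 207346. LHX6, a factor of the first branchial arch, was measured at 0.953, 0.917 and 0.731 CPM in HaCaT and 29.8, 28.2 and 24.8 CPM in TIGK, 31.6-fold lower. NKX2-5 and DMRTA2, both without a read in HaCaT, were at least 249-fold and at least 232-fold lower. TIGK libraries were the higher in each case. Toward HaCaT stood ONECUT3, IRX5, 4.92-fold higher, and IRX3, 1.68-fold higher.

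Genes of cell division were at different levels by phase. Of 55 mitotic genes 50 were higher in HaCaT and 0 lower, with a median log2 difference of 1.07. The mitotic kinesin partner HMMR, also a hyaluronan-binding protein, was measured at 45, 50.4 and 44.2 CPM in HaCaT and 9.58, 6.52 and 12.1 CPM in TIGK, 4.92-fold higher (adjusted p = 6.7e-13). FOXM1, the transcription factor of the G2 programme, stood at 119.9 ± 2.5 against 43.3 ± 2.39 CPM, the cytokinesis factor ECT2 at 91.6 ± 3.53 against 35.2 ± 3.86 CPM and the phosphatase CDC25B at 234 ± 8.24 against 104 ± 0.673 CPM. All 4 had every HaCaT library above every TIGK library. The DNA replication list showed the reverse lean, with 25 of 47 lower and 9 higher. MCM4 and MCM5, of the replicative helicase, were 3.25-fold and 3.35-fold lower, and the uracil glycosylase UNG 3.1-fold lower. MCM10 and CDC45 were 2.06-fold and 1.92-fold higher. Among regulators of G1, CDKN2A, which encodes the inhibitors p16 and ARF (chr 9, 21967753 to 21995301), was measured at 48.4, 46 and 46.6 CPM in HaCaT and 346, 342 and 327 CPM in TIGK, 7.2-fold lower. CDKN1C stood at 0.473 ± 0.184 against 66 ± 20.6 CPM, 137-fold lower, and the Polycomb gene BMI1 was 5.66-fold higher. TERT, the telomerase subunit, stood at 5.36 ± 0.11 against 32.1 ± 3.53 CPM; reads of an introduced copy and of the chromosomal gene cannot be told apart.

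Promoters of the mitotic genes were searched for CCAAT and, for the other strand, ATTGG, the letters bound by NF-Y. RefSeq promoters matched 46 of the 55 genes by symbol, and 35 of them (76.1%) held a match in the 250 bases before the start, against 34.5% of 11499 promoters of genes tested and 33% of all 27305 promoters. Of the 41 promoters of mitotic genes called higher, 78.0% held one; over all genes more than 2-fold higher in HaCaT the share was 32.4%. The promoters of HMMR (GRCh38.p14, chr5:163460382-163460631, plus strand) and KIF23, a kinesin of cytokinesis that stood at 113 ± 5.61 against 34.8 ± 1.03 CPM (GRCh38.p14, chr15:69414099-69414348, plus strand), are printed in the same way, as the 2 with a match and the largest differences.
HMMR: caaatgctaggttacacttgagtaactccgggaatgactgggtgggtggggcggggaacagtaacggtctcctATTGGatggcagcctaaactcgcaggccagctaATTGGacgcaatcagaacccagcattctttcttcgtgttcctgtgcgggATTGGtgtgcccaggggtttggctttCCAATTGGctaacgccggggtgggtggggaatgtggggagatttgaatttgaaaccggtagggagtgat
KIF23: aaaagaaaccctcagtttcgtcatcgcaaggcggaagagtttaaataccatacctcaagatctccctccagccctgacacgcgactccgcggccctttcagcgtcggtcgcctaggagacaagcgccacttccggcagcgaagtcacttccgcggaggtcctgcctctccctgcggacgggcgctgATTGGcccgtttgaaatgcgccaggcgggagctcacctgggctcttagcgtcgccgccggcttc
HMMR holds 5 matches, of which 2 overlap, and KIF23 holds 1, beginning 64 bases before the start.

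Metabolic lists were at different levels in the lines. In the glycolysis and hypoxia list 28 of 40 genes were lower in HaCaT and 5 higher. HIF1A, the oxygen-regulated factor (chr 14, 61695513 to 61748259), was measured at 103, 119 and 106 CPM in HaCaT and 476, 439.9 and 409 CPM in TIGK, 4.03-fold lower. The lactate exporter SLC16A3 and the mitophagy receptor BNIP3 were 3.27-fold and 3.45-fold lower. PFKP, PFKFB3 and PKM, 3 enzymes of glycolysis and its control, were the other way, 2.23-fold, 2.26-fold and 1.23-fold higher. Cholesterol synthesis was divided, 12 of 25 higher and 10 lower. INSIG1 and IDI1 were 3.15-fold and 2.83-fold higher, and DHCR7, SQLE and TM7SF2 1.56-fold, 1.81-fold and 3.2-fold lower. SCD, a fatty acid desaturase, stood at 7242 ± 396 against 3925 ± 202 CPM and its relative SCD5 was 6.8-fold lower. The lipid regulators SREBF1 and CPT1A were 2.45-fold and 2.09-fold higher, and FABP5 8.15-fold lower. Of 13 mitochondrially encoded genes 7 were higher and 1 lower, MT-ND2 among the former at 3644 ± 10.6 against 2257 ± 485 CPM. Without TIGK library C at 6 h the 7 became 4, and on log2 FPKM with limma 2.

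Stress lists differed in their lean. Of 39 genes of the unfolded protein and integrated stress responses 19 were lower and 9 higher, and of 18 cytosolic chaperones 11 were lower and 2 higher. The amino acid transporter SLC7A5 was measured at 3007, 2848 and 2841 CPM in HaCaT and 6788, 6996 and 5934 CPM in TIGK, and its partner SLC3A2 stood at 795 ± 30.5 against 1713 ± 109 CPM. They were 2.27-fold and 2.15-fold lower. DDIT4, an inhibitor of mTOR, was 2.67-fold lower and STC2 5.28-fold lower; DNAJA1 and HSPA4L were 3.52-fold and 5.43-fold lower. EDEM1, PSAT1 and BAG3 were 2.06-fold, 1.55-fold and 2.01-fold higher. NRF2 targets were on both sides, 16 of 38 higher and 15 lower. The glutathione peroxidase GPX2, the exporter ABCC3 and AKR1C2 were 21.4-fold, 6.5-fold and 5.83-fold higher, and ferritin light chain FTL and GSTM3 4.67-fold and 14.1-fold lower. AKR1C genes are near-identical and may share reads.

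The difference between the lines at 6 h was set against the difference before the scratch and at 24 h. At 0 h, 10894 genes were called (62.6%), and 9347 were called in the same direction at 0 h and 6 h, 85.8% of either list; 16 were called in opposite directions. The change itself was tested as an interaction, the 6 h difference minus the 0 h difference. It was called for 131 genes, 0.752% of those tested: 38 moved toward HaCaT (0.218%) and 93 toward TIGK (0.534%). Of the 1537 genes called at 6 h and not at 0 h, 19 were called for the change. The count of 131 is sensitive to single libraries. It was 267 without TIGK 6 h C, 65 without TIGK 6 h B, 75 without TIGK 6 h A, 86 without TIGK 0 h B, 72 without HaCaT 0 h A, and 72, 87 and 77 without HaCaT 6 h A, B and C. The members of the lists called for this change, 46 in all, include most of the genes named next. They were chosen after these calls were seen. All values are CPM and all changes are on the log2 scale.

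Among them were some genes of the wound matrix that moved toward TIGK, so that HaCaT minus TIGK was smaller at 6 h than at 0 h. FN1 stood at 235 ± 6.17 at 0 h and 261 ± 11.8 at 6 h in HaCaT and at 662 ± 43.6 and 1432 ± 44.6 in TIGK, a change of -0.96 (adjusted p = 5.2e-05). The means of the 2 times lay further apart in TIGK than in HaCaT. Among chains of laminin-332, LAMB3, with 526 ± 48.5 and 1105 ± 79.2 in TIGK against 2422 ± 115 and 2543 ± 46.6 in HaCaT, changed by -1.0 and LAMA3 by -0.79. The integrins ITGA2 and ITGB6 changed by -0.89 and -0.92. Thrombospondin-1 (THBS1) changed by -0.93; it stood at 1432 ± 131 against 737 ± 73.9 at 0 h and 1957 ± 98.5 against 1919 ± 102 at 6 h, when it was not called between the lines. The proteases MMP1 and MMP3 changed by -1.76 and -2.11, with MMP3 at 0.821 ± 0.445 and 5.16 ± 1.05 in TIGK. PMEPA1 changed by -1.73, from 24.9 ± 4.68 to 94.9 ± 17.3 in TIGK and from 377 ± 42.4 to 437 ± 26.9 in HaCaT. For LAMB3, PMEPA1, ITGA2 and MMP1 the level was higher in HaCaT at both times, so the gap narrowed; for FN1 it was lower at both, so the gap widened.

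Transcription factors were also among them. JUNB stood at 172 ± 10.8 against 169 ± 4.78 at 0 h and at 143 ± 11.4 against 238 ± 14.8 at 6 h, a change of -0.77. FOSL2 changed by -0.63, TP63 by -0.66 and FOXN1, a factor of keratinocyte differentiation, by -1.21. KRT6A changed by -0.50 and the ligand WNT9A by -1.24. All of these moved toward TIGK. In the opposite direction, 6 of 25 cholesterol genes were called and 0 toward TIGK: among them, HMGCS1, MSMO1 and INSIG1 changed by 0.91, 0.57 and 0.51. HMGCS1 stood at 359 ± 21.2 and 203 ± 17.9 in TIGK and at 134 ± 3.15 and 142 ± 10.3 in HaCaT. The hyaluronan genes CEMIP and HAS3 changed by 1.77 and 0.68. Among protein-coding genes with at least 10 CPM in a group, the 6 largest called changes toward HaCaT were those of HS6ST2, GPR89B, VGF, MCF2L, CEMIP and COBL, at 5.64, 2.44, 2.05, 1.86, 1.77 and 1.58. HS6ST2 had no read in HaCaT at 0 h and 0.33 ± 0.0439 CPM at 6 h, so its fitted change depends on the prior count. VGF, a secreted neuropeptide precursor, stood at 124 ± 32.8 and 35.4 ± 4.82 in TIGK and 12.7 ± 0.475 and 15 ± 0.778 in HaCaT. Of these 25 genes, 14 kept the call for the change under all 26 alternatives. CEMIP, HS6ST2, KRT6A and MMP3 lost it by limma on log2 FPKM alone, and MSMO1 without HaCaT library C of 0 h or of 6 h. COBL, FOSL2 and TP63 lost it when any of 3, 5 and 5 single libraries was left out, GPR89B, INSIG1 and MCF2L with 6, 7 and 13; over all 26 alternatives their adjusted p in edgeR, DESeq2 or limma rose to at most 0.392, in COBL.

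**Figure D5:**
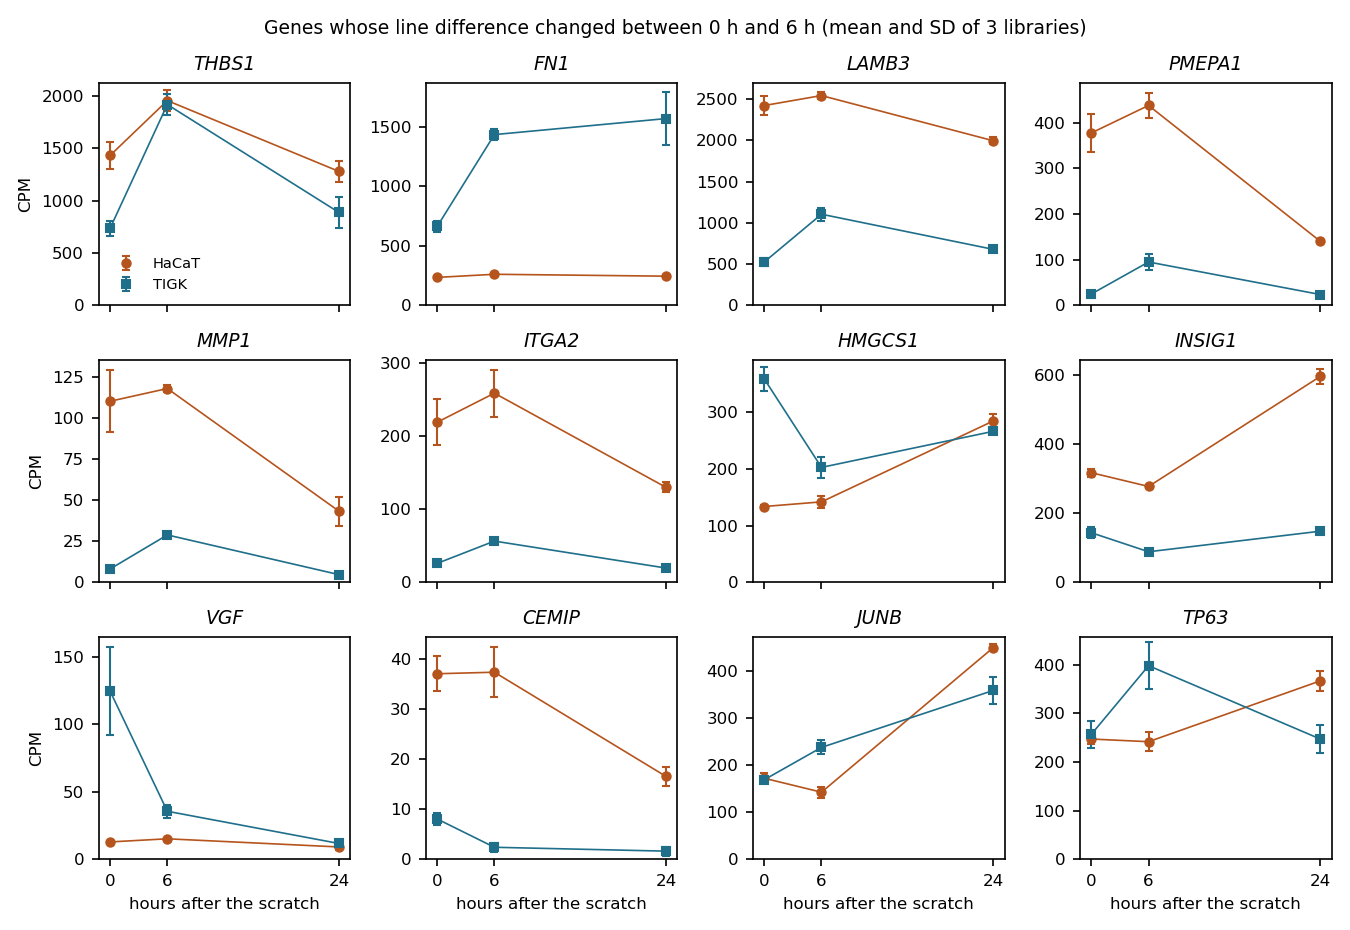
Each panel is a gene called for the change between 0 h and 6 h; points are the means and bars the SD of 3 libraries in CPM, against hours after the scratch, with HaCaT in orange circles and TIGK in blue squares and each panel on its own vertical scale from 0. In THBS1, FN1, LAMB3, PMEPA1, MMP1, ITGA2, JUNB and TP63 the TIGK mean is higher at 6 h than at 0 h, and in HMGCS1, INSIG1, VGF and CEMIP it is lower.

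By 24 h more genes had moved. The 24 h difference minus the 6 h difference was called for 3053 genes, 17.5%, of which 1541 moved toward HaCaT (8.85%) and 1512 toward TIGK (8.69%). At 24 h, 10734 genes were called (61.7%), and 8257 were called in the same direction at 6 h and 24 h. Of 60 interferon-stimulated effectors, 51 were called for this change and 1 for the earlier one, DDX60. RSAD2, CMPK2, DDX60L and ISG15 changed by -4.15, -4.12, -3.45 and -3.30; ISG15 stood at 96.7 ± 19.9 and 1015 ± 255 CPM in TIGK and at 18.2 ± 3.75 and 19.4 ± 1.53 in HaCaT. NFATC2 and HENMT1 changed by -4.80 and -4.34. Toward HaCaT, PLIN2 changed by 5.38, MGAT3 by 4.64 and HS3ST2 by 4.56. ZNF469, G0S2 and KCNJ12, without a read in HaCaT at 6 h, changed by 6.86, 6.01 and 4.73. These 3 values, and those of HS3ST2 and HENMT1, each rest on a group without a read and depend on the prior count. Of these 12 genes, 7 kept the call under all 26 alternatives. NFATC2 and HS3ST2 lost it by limma on log2 FPKM. G0S2 lost it without HaCaT library A or C of 24 h, KCNJ12 without A or B of 24 h, and HENMT1 without B or C of 6 h or any HaCaT library of 24 h.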

How the data were processed

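RNA from 18 libraries (2 lines, 3 times, 3 libraries each) was sequenced. The tools named, per the submitters' processing notes, are featureCounts 1.5.0-p3, StringTie 1.3.3b and HISAT2 2.0.5, and the build is hg38; the annotation, the role of each tool and the use of strand are not given in the sources used here. The authors deposited read counts and FPKM for 58735 genes, per the file headers, and comparison tables with log2 fold changes, a score (the test statistic), p-values and adjusted p-values. Normalised count columns in those tables are the authors' deposited signal.

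The test on counts was the quasi-likelihood test of edgeR 4.0.16 (R 4.3.3). The function filterByExpr kept 17409 genes, scaling was by TMM, and the fit had a mean for each of the 6 groups of 18 libraries (12 residual degrees of freedom, prior count 0.125), which share one estimate of spread. CPM use the TMM-scaled size. SE is the absolute log2 difference over the square root of F. A gene was called at a Benjamini-Hochberg false discovery rate under 0.05, two-sided, over all genes; more than 2-fold was tested with glmTreat. Against a line without reads, a fold is a lower bound at 3 counts per library; with 1 to 3 reads, the ratio has an exact binomial interval. Depth was 15690679 to 18039684 counts at 6 h. Alternatives were DESeq2 1.42.0, its size factors in edgeR, limma 3.58.1 on log2(FPKM + 0.1), no filter, fewer libraries, blocks by letter and each library left out. The scripts were tested on simulated data.

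Members and lists were chosen with earlier results of these data known. Named genes are protein-coding with a symbol that occurs once. They are the 12 largest log2 differences each way at 6 h among called genes without overlap of libraries and with at least 20 CPM in the higher line; the 6 largest differences of mean CPM each way; the 6 largest changes each way of the line difference between times, with at least 10 CPM in a group; up to 3 members each way of each of 55 lists by lowest adjusted p; and 4 promoters per motif. Older symbols were matched through a table of names. X-inactivation and Y-linked genes were left out of naming. Promoters are RefSeq's, GRCh38.p14, 250 bases before the start. Folds are printed only for called genes. Some genes that the naming rule picks are not reported here.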

Additional observations from a re-analysis of the deposited data

Results flagged for a closer look

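The results here stand out because the difference between the lines itself differed between times, tested as an interaction (edgeR, false discovery rate under 0.05 over 17409 genes). The difference at 6 h was not that at 0 h for 131 genes, and the difference at 24 h was not that at 6 h for 3053. The changes below are log2 values, HaCaT minus TIGK.

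From 0 h to 6 h, several named genes moved toward TIGK: PMEPA1 by -1.73, LAMB3 by -1.0 and LAMA3 by -0.79. MMP1 moved by -1.76 and MMP3 by -2.11. FN1 moved by -0.96, THBS1 by -0.93, ITGA2 by -0.89 and ITGB6 by -0.92. KRT6A moved by -0.50, JUNB by -0.77, FOSL2 by -0.63, TP63 by -0.66, FOXN1 by -1.21 and WNT9A by -1.24. In the other direction, the cholesterol genes HMGCS1, MSMO1 and INSIG1 moved by 0.91, 0.57 and 0.51. HS6ST2 moved by 5.64, GPR89B by 2.44, VGF by 2.05, MCF2L by 1.86, CEMIP by 1.77, COBL by 1.58 and HAS3 by 0.68.

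From 6 h to 24 h, ZNF469, G0S2, PLIN2, KCNJ12, MGAT3 and HS3ST2 moved toward HaCaT by 6.86, 6.01, 5.38, 4.73, 4.64 and 4.56. NFATC2 and HENMT1 moved by -4.80 and -4.34, and the interferon-stimulated RSAD2, CMPK2, DDX60L and ISG15 by -4.15, -4.12, -3.45 and -3.30. The only unscratched cultures are those of 0 h, so an effect of the wound and of further hours in culture cannot be told apart.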

How the results depend on the processing

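The count of genes called between the lines at 6 h, 10900, stayed within 1.5 times under every alternative run, at 10192 to 11082 when each of the 18 libraries was left out in turn. The count of genes more than 2-fold apart, 3611, ran from 3359 to 3648 in the same way, and the 24 h minus 6 h change, 3053, from 2507 to 3263. The 6 h minus 0 h change, 131 genes, depended on the choice: it ran from 65 to 267 with a library left out, and was 290 by DESeq2, 293 without a filter on low counts, 86 by limma-trend on log2 FPKM and 197 without the TIGK letter C libraries of 0 h and 6 h. The cause was not tested.

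The labels number the replicates and the columns carry letters, which the labels do not tie to the numbers. Same-letter libraries of the lines at 6 h had correlations of deviations of -0.068, 0.017 and 0.075 over 9738 genes. The letters were therefore not taken to pair the lines. Same-letter libraries within a line were not compared in this way. TIGK library C stood apart at 0 h as at 6 h, with 26246 genes listed and 5.08% mitochondrial reads at 0 h. With a replicate block by letter shared by both lines, 10864 genes were called at 6 h and 131 for the change from 0 h; with a block by letter within each line, 212 were called for that change.

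Of 349 genes picked at 6 h by the naming rule, 9 lost the call under at least 1 alternative and 0 reversed: CMPK2, ERAP2, MT-CO1, MT-CO2, MT-CO3, MT-ND4L, OSMR, PMEL and RSAD2. Genes named outside that rule, such as MMP9, MMP14 and CDH1, were not put through this check. The share of all promoters with TGACTCA was 4.92% when the 50 bases after the start were added. Depth limits the low genes: 397 genes tested had no read in HaCaT at 6 h and 84 none in TIGK, and their folds are bounds that cover counting error only.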

Other observations

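Other gene lists were compared in the same way. Of 16 genes of extracellular nucleotide signalling 8 were higher in HaCaT and 6 lower. The ectonucleotidase NT5E, which makes adenosine, was 3.69-fold higher, at 186 ± 5.76 against 50.4 ± 5.72 CPM, and the receptors P2RY1 and ADORA2B were 3.84-fold and 1.6-fold higher. ENTPD2, P2RX5 and ADORA1 were 3.81-fold, 4.55-fold and 18.1-fold lower. Of 16 prostaglandin genes 7 were higher and 5 lower. The phospholipase PLA2G4A, which releases arachidonic acid, and the cyclooxygenase PTGS2 were 5.55-fold and 2.49-fold higher, and the receptors PTGER2 and PTGER4 4.26-fold and 5.71-fold lower.

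Of 17 clock genes 3 were higher and 8 lower. PER3 and PER1 stood at 3.16 ± 0.672 against 40.6 ± 1.78 CPM and 61.3 ± 0.858 against 153 ± 11 CPM, and ARNTL at 54.9 ± 1.78 against 33 ± 2.93 CPM. Among p53 pathway genes, 7 of 28 were higher and 9 lower, 57.1% called against 62.6% of all genes tested. PMAIP1, PLK2 and SFN were 3.32-fold, 2.8-fold and 2.1-fold higher, and GDF15, SESN1 and SESN2 24-fold, 2.84-fold and 2.08-fold lower. Of 12 aryl hydrocarbon receptor genes 4 were higher and 4 lower, with ALDH3A1 6.86-fold higher and the repressor AHRR 9.13-fold lower. In the lipid droplet list, 6 of 20 were higher and 6 lower, and PLIN2 and G0S2, 102-fold higher and at least 377-fold lower, stood on opposite sides of an even list. Most secreted defence genes were low: 15 of 26 passed the filter, 4 were higher and 6 lower. C3 had means of 53.3 against 98.5 CPM. PGLYRP3 and WFDC2 were 4.42-fold and 2.39-fold higher. S100A9 stood at 1.53 ± 0.497 against 18 ± 1.88 CPM and C1R at 4.1 ± 0.44 against 14.4 ± 0.413 CPM.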
